A study of Homo sapiens with 18 samples.

Results

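The let-7 family is a group of microRNAs, and its 9 members here were the mature 5p arms of let-7a, let-7b, let-7c, let-7d, let-7e, let-7f, let-7g, let-7i and miR-98, chosen by name. In the table their names carry the prefix hsa, for human. They are 9 of 1425 microRNA entries and of 2462 small RNA features in the deposited table. HEK293T is a human embryonic kidney cell line. Cells of 3 genotypes, wild type, ATG7-/- and ATG12-/-, and the extracellular vesicles (EVs) released by each gave small RNA libraries, in 6 groups of 3. All 6 groups, the wild type controls included, went through 24 h of serum starvation. The ATG7-/- group is a single clone, named F2 in the labels, and the ATG12-/- group is a single clone, named D9, so genotype and clone cannot be told apart. ATG7 and ATG12 are needed to attach LC3 and related proteins to membrane lipids. Their mRNAs were not analysed here, so neither the knockouts nor the cell line were checked against the genes that define them. Before starvation the cells grew with bovine serum, which carries microRNAs of its own.

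MicroRNAs are short RNAs that guide Argonaute proteins to messenger RNAs, mostly through pairing of the bases near their 5′ end, called the seed. The let-7 family is known for repressing growth and pluripotency genes, among them HMGA2, MYC and LIN28A. Its precursors are in turn blocked by LIN28 proteins, so that mature let-7 rises as cells differentiate. A let-7 hairpin is cut by Drosha and Dicer into a 5p and a 3p arm, and for most family members the 5p arm is the one kept.

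The mature sequences show how few bases separate the members, which matters for every value that follows, because reads must be told apart by these bases. They are RefSeq sequences (GRCh38.p14), written 5′ to 3′ with the seed, bases 2 to 8, in capitals. All 9 names matched a RefSeq entry.
hsa-let-7a-5p: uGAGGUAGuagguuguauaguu
hsa-let-7b-5p: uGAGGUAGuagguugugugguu
hsa-let-7c-5p: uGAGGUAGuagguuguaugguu
hsa-let-7d-5p: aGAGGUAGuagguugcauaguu
hsa-let-7e-5p: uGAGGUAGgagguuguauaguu
hsa-let-7f-5p: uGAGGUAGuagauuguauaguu
hsa-let-7g-5p: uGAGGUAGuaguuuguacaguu
hsa-let-7i-5p: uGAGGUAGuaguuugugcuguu
hsa-miR-98-5p: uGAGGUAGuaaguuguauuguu

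The 9 members share 1 seed, GAGGUAG, and 1 length, 22 nt. Positions are counted from 1 at the 5′ end, and each change is given from let-7a-5p to the other member. Single changes separate let-7a-5p from let-7c-5p (A19G), from let-7e-5p (U9G) and from let-7f-5p (G12A). A pair of changes separates it from let-7b-5p (A17G and A19G), let-7d-5p (U1A and U16C), let-7g-5p (G12U and U18C) and miR-98-5p (G11A and A19U). The most distant member is let-7i-5p, with 4 changes (G12U, A17G, U18C and A19U). How reads that fit several members or several gene copies were assigned is not given in the sources used here, so levels of members 1 base apart may share reads. The other RefSeq microRNAs with this seed, miR-4458 and miR-4500, were not analysed here.

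Several members are made from more than 1 hairpin, and the loci decide which other RNAs are their neighbours. RefSeq places 12 hairpins of the family on 8 chromosomes of GRCh38.p14, and GENCODE release 29 gives the host genes. MIRLET7A1, MIRLET7F1 and MIRLET7D lie together on chromosome 9, from 94175957 to 94178920, in an intron of the long noncoding RNA AL158152.2. MIRLET7A3 and MIRLET7B lie 863 bp apart on chromosome 22, at 46112749 to 46112822 and 46113686 to 46113768, in exons of MIRLET7BHG. MIRLET7A2 (chromosome 11, 122146522 to 122146593, minus strand) lies in an intron of MIR100HG, the host gene of miR-100. MIRLET7E (chromosome 19, 51692786 to 51692864) lies in an intron of SPACA6, 104 bp from MIR99B and 389 bp from MIR125A. MIRLET7C (chromosome 21, 16539828 to 16539911) lies in an intron of MIR99AHG, 658 bp from MIR99A. MIRLET7F2 and MIR98 lie 850 bp apart in an intron of HUWE1 on chromosome X. MIRLET7G lies in an intron of WDR82 on chromosome 3 and MIRLET7I in an intron of AC048341.1 on chromosome 12. The mature let-7a-5p and let-7f-5p cannot be traced to 1 of their hairpins from these data.

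Depth was 1188388 to 1804089 reads in cell libraries and 1881080 to 3382605 in vesicle libraries. Every level below is in normalised reads: the reads of a library divided by its size factor, so that 1 read is worth 0.477 to 1.89. Every pair of replicates differed by more than counting noise, with a chi-square of 5.56 to 91.4 per degree of freedom. That alone does not show that they are separate samples. Each was kept as a sample of its own because the labels call them biological replicates. A feature was tested where it reached 10 normalised reads in at least 3 of the fitted libraries. By that minimum let-7a, let-7b, let-7c, let-7e, let-7f and let-7g, 6 of the 9 members, were tested in every comparison, and let-7d, let-7i and miR-98 in none. In bulk samples, fewer vesicles and less RNA per vesicle cannot be told apart.

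Most of the family was let-7a-5p. It made up 64.8% to 78.3% of the family's reads in the 18 libraries. By mean level it ranked 1 of 1424 microRNAs in cells and 3 of 1424 in vesicles, with the entry miR-6724-5p, which lies in ribosomal DNA, left out. The members have equal length, so their levels were compared without a correction for length. How evenly the libraries recovered each sequence was not tested, and members 1 base apart may share reads. In wild type cells the order was let-7a (1444 ± 137 normalised reads), let-7f (355 ± 37.4), let-7e (174 ± 20.2), let-7c (104.8 ± 11.001), let-7b (35.4 ± 2.20) and let-7g (20.7 ± 2.47), as mean ± SD of 3 libraries. No neighbours in that order overlapped between their libraries. Below them miR-98 (3.62 ± 2.57), let-7d (2.92 ± 0.375) and let-7i (2.20 ± 1.63) overlapped each other.

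The order was not the same in every group. In ATG12-/- cells let-7b (148 ± 7.55) stood above let-7c (112 ± 3.99), and their libraries did not overlap. In wild type vesicles let-7a (636 ± 162) and let-7f (143 ± 30.1) led, and let-7e (48.2 ± 18.6), let-7c (41.6 ± 13.0), let-7b (29.7 ± 15.6) and let-7g (16.6 ± 4.65) each overlapped the next. In ATG7-/- vesicles let-7b (68.2 ± 5.51) stood above let-7c (46.5 ± 4.83) with no overlap. In ATG12-/- vesicles let-7b (110.05 ± 16.3) stood beside let-7f (127 ± 19.8), whose libraries it overlapped, and above let-7c (68.6 ± 18.9) and let-7e (44.0 ± 17.2). All error values here are SD of 3 libraries.

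**Figure D1:**
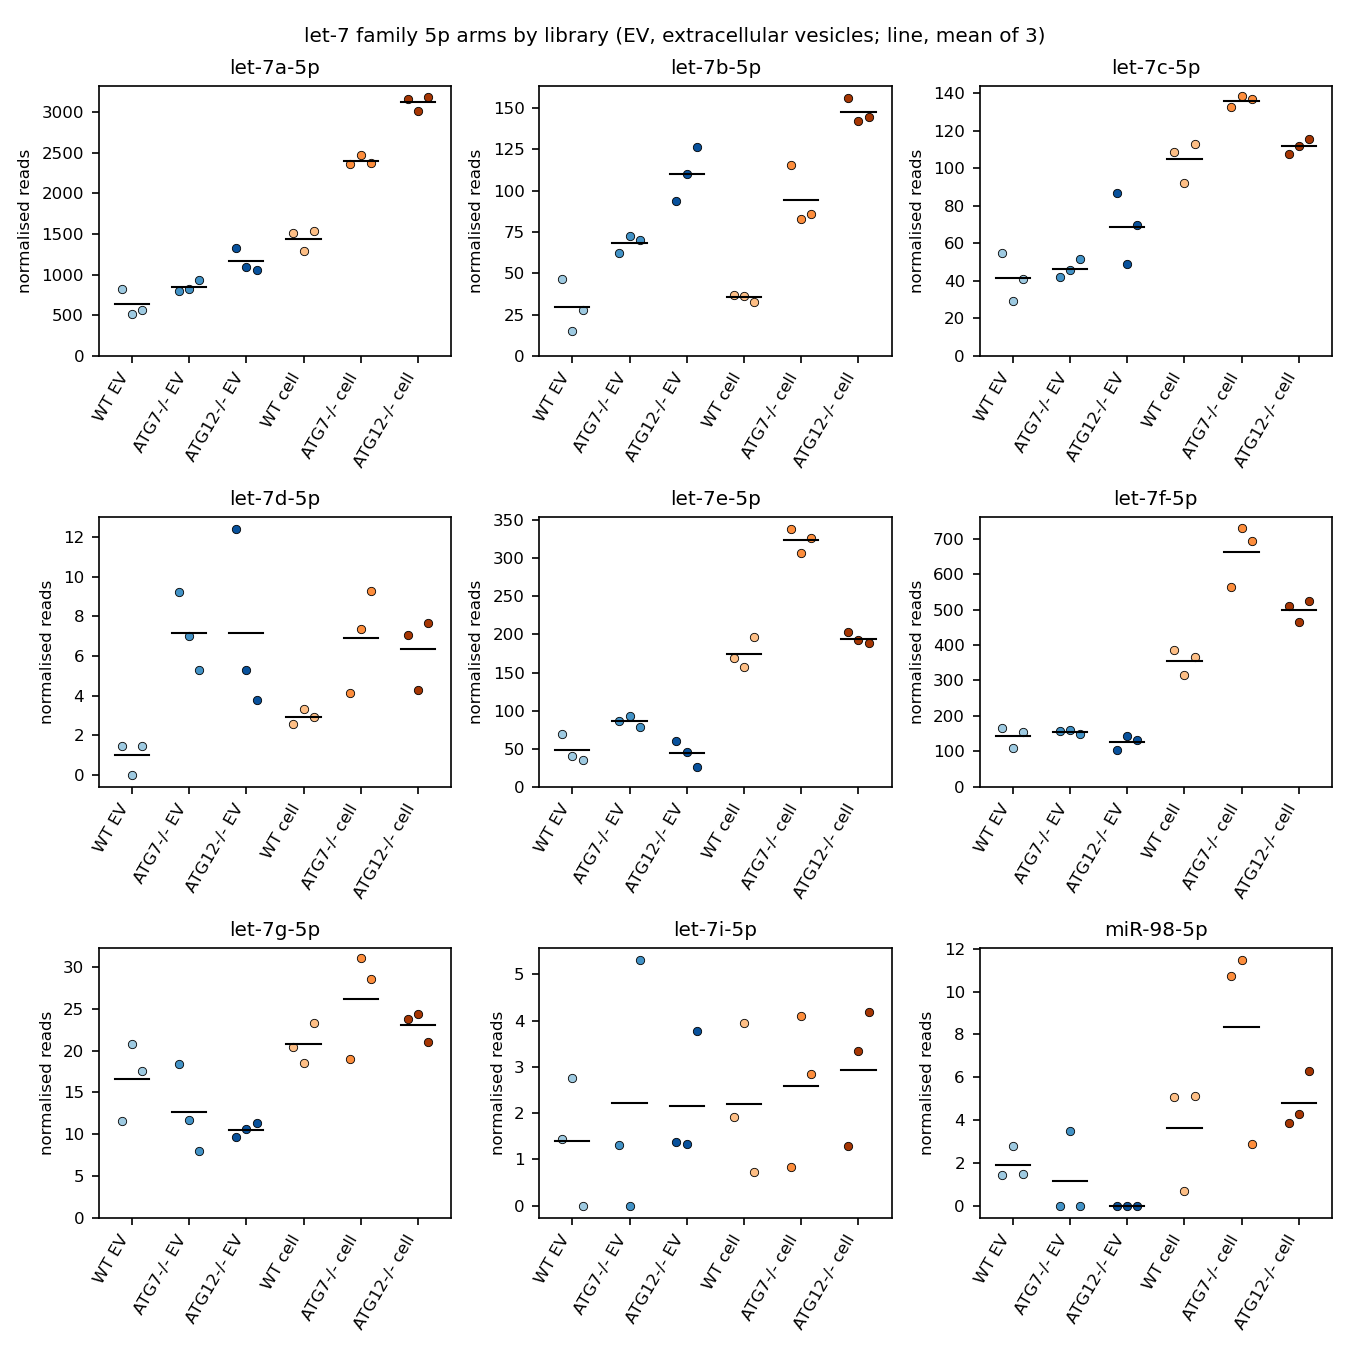
Normalised reads (y axis, linear) of each of the 9 members in the 18 libraries, grouped by genotype and by vesicle (EV, blue) or cell (orange); each point is 1 library and each line the mean of 3. let-7a-5p is highest in ATG12-/- cells, where it lies between 3015 and 3187, and the panels of let-7d, let-7i and miR-98 reach no more than 12.4.

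Added up, the 9 members reached 920 ± 227 normalised reads in wild type vesicles, 1232 ± 61.7 in ATG7-/- vesicles and 1532 ± 147 in ATG12-/- vesicles. In cells the sums were 2143 ± 200, 3663 ± 117 and 4113 ± 131 in the same order. The 9 cell libraries all lay above the 9 vesicle libraries. Normalised totals of all features were 2.74e+06 to 3.99e+06 in vesicle libraries and 8.59e+05 to 1.04e+06 in cell libraries. Of all reads, the family took 0.0314%, 0.0328% and 0.0414% in wild type, ATG7-/- and ATG12-/- vesicles (means), and these groups overlapped. In cells it took 0.211%, 0.386% and 0.475%, without overlap. A share within the microRNAs does not depend on the size factors. Of the microRNA reads other than miR-6724-5p, the family took 9.32% ± 0.761 in wild type, 9.24% ± 0.505 in ATG7-/- and 10.6% ± 1.502 in ATG12-/- vesicles (SD, n = 3 each), and these groups overlapped. In cells it took 15.4% ± 0.214, 20.0% ± 0.768 and 25.8% ± 0.939, and those groups did not overlap. These shares still count every other microRNA entry, among them miR-3607-5p and miR-3653-5p. Their median levels were 1690 and 985.5 normalised reads in cells and 17.24 and 17.97 in vesicles. Within the 9 cell libraries their Pearson's r with the log2 family sum was -0.6173 and -0.5041. The shares without these entries were not computed.

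The first comparison asked which members were lower or higher in vesicles than in the cells that released them. In wild type, let-7a, let-7c, let-7e and let-7f were lower in vesicles, by 1.21 to 1.89 on the log2 scale, and let-7b and let-7g were not called. In both knockouts let-7g was also called lower, and let-7b again was not called. By its estimate the largest deficit of the 6 tested members was that of let-7f in ATG7-/- and that of let-7e in wild type and ATG12-/-.

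hsa-let-7a-5p had 821, 518 and 569 normalised reads in the 3 wild type vesicle libraries and 1509.8, 1286 and 1535 in the wild type cell libraries. The vesicle values were all below the cell values, and the log2 change was -1.21 (SE 0.15, limma adjusted p = 2.19e-07). hsa-let-7e-5p had 69.4, 40.1 and 35.0 in vesicles and 169, 157 and 196 in cells. Those groups did not overlap either, and let-7e fell by 1.89 (SE 0.24, limma adjusted p = 2.90e-07). hsa-let-7f-5p had 166, 109 and 155 in vesicles and 387, 314 and 366 in cells, a change of -1.32 (SE 0.17). hsa-let-7c-5p had 54.9, 29.04 and 40.8 in vesicles and 109, 92.4 and 113 in cells, a change of -1.35 (SE 0.21).

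hsa-let-7b-5p had 46.3, 15.2 and 27.7 in wild type vesicles and 36.9, 36.3 and 32.9 in wild type cells. The vesicle libraries lay on both sides of the cell libraries, and the change was -0.37 (SE 0.26, limma adjusted p = 0.188). It was called without wild type vesicle replicate 1 (-0.75), with library totals (-1.84) and with scaling factors from microRNAs (-0.71), and it was 0.02 without replicate 2. hsa-let-7g-5p had 11.6, 20.7 and 17.5 in vesicles and 20.4, 18.5 and 23.4 in cells, with a change of -0.34 (SE 0.30, limma adjusted p = 0.309), which was called with library totals (-1.77).

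Over the family, 4 of 6 tested members were lower and 0 higher in wild type vesicles, where 42.9% of 905 features were called lower and 38.9% higher. In ATG7-/- 5 of 6 were lower and 0 higher, against 42.8% and 40% of all features, and in ATG12-/- 5 of 6 and 0, against 41.1% and 39.2%. The vesicle and cell libraries did not overlap for 4 of 6 members in wild type, where they did not for 83.8% of features, and for 6 of 6 in ATG7-/- (84.9% of features) and in ATG12-/- (85% of features). The median change of the 6 members was -1.26, -1.52 and -1.25 in wild type, ATG7-/- and ATG12-/-, and that of all features was -0.13, -0.03 and -0.10. That of the 130 tested microRNAs was -0.05, -0.51 and -0.26. Of these microRNAs 31.5%, 41.5% and 31.5% were called lower and 27.7%, 23.1% and 27.7% higher. No member that was called changed direction under another scaling, and the number of lower members ranged from 4 to 6 in each genotype.

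In ATG7-/- the change from cells to vesicles was -2.07 (SE 0.17) for let-7f, -1.90 (SE 0.24) for let-7e, -1.53 (SE 0.21) for let-7c, -1.50 (SE 0.15) for let-7a and -1.03 (SE 0.30) for let-7g. let-7b changed by -0.45 (SE 0.26, limma adjusted p = 0.111). In ATG12-/- the change was -2.19 (SE 0.24) for let-7e, -1.98 (SE 0.17) for let-7f, -1.43 (SE 0.15) for let-7a, -1.06 (SE 0.30) for let-7g and -0.73 (SE 0.21) for let-7c. let-7b changed by -0.43 (SE 0.26, limma adjusted p = 0.130). let-7b was called lower in both knockouts with library totals (-2.41 and -2.52), with TMM (trimmed mean of M values) factors over all features (-0.66 and -0.64) and with edgeR (-0.66 and -0.69), and in ATG12-/- with TMM factors from microRNAs (-0.72). A further scaling used TMM factors from only the microRNAs tested in the fitted libraries. It is called the added microRNA scaling below, because it and its counterpart over all tested features were chosen after seeing the data. With it let-7b in ATG7-/- turned to 0.14 and let-7g there was no longer called (-0.47). In ATG12-/- it ended the call of let-7c (-0.46, limma adjusted p = 0.0542).

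**Figure D2:**
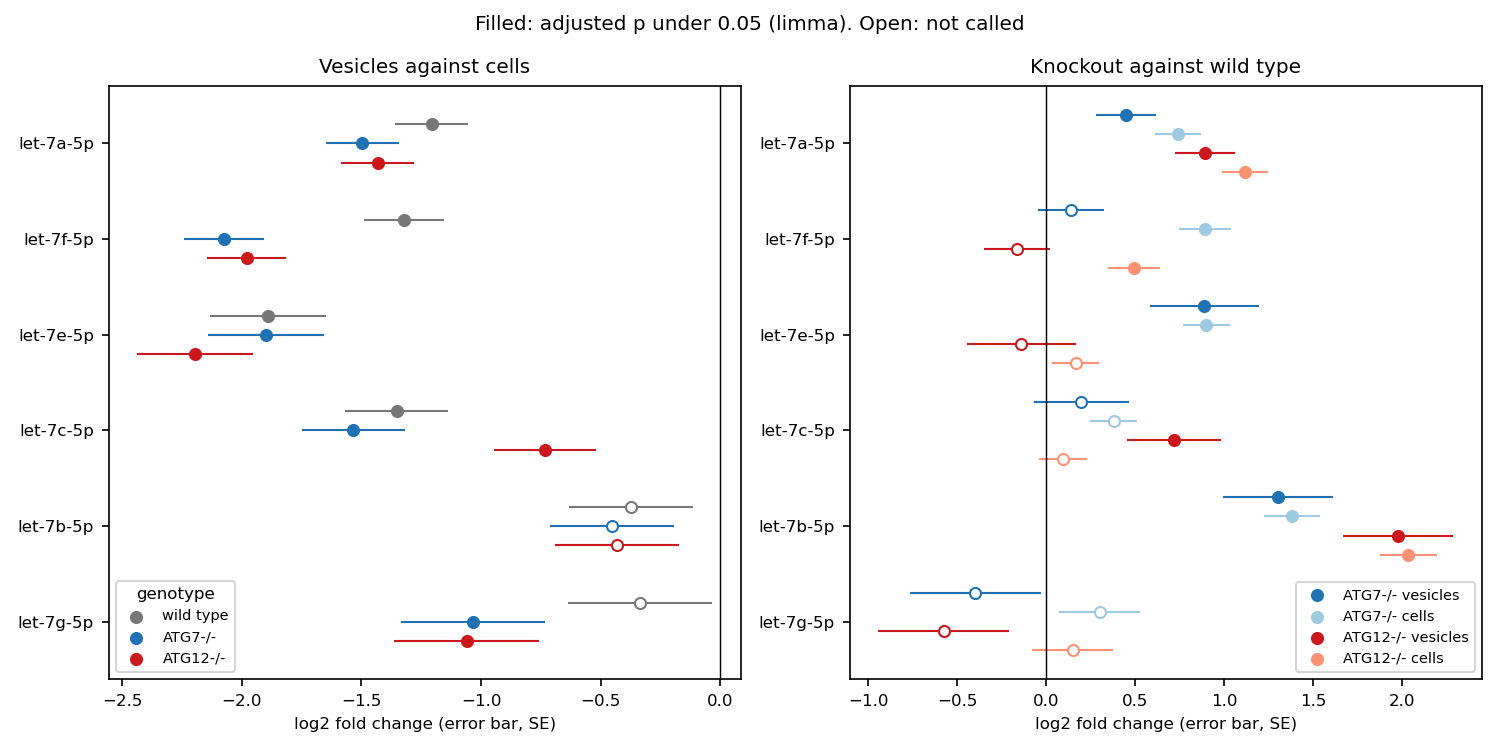
Log2 fold change (x axis) of the 6 tested members, vesicles against cells in each genotype on the left and knockout against wild type in vesicles and in cells on the right; error bars are SE, filled points passed an adjusted p of 0.05 in limma and open points did not. On the left the points of let-7b-5p are open in all 3 genotypes, and on the right it shows the largest rise, 2.03 in ATG12-/- cells.

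The next comparison set knockout cells against wild type cells. In ATG7-/- cells let-7a, let-7b, let-7e and let-7f rose, and in ATG12-/- cells let-7a, let-7b and let-7f rose. let-7b rose most, 2.60-fold in ATG7-/- and 4.09-fold in ATG12-/- cells. No member fell in either. Both comparisons use the same wild type cell libraries, so they are not independent.

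hsa-let-7b-5p had 115, 82.7 and 85.7 normalised reads in ATG7-/- cells and 156, 142 and 145 in ATG12-/- cells, against the 32.9 to 36.9 of wild type cells. Every knockout library lay above every wild type library. The log2 change was 1.38 (SE 0.16, limma adjusted p = 0.000106) in ATG7-/- and 2.03 (SE 0.16, limma adjusted p = 4.64e-06) in ATG12-/-. hsa-let-7a-5p had 2366, 2471 and 2368 in ATG7-/- cells and 3167, 3015 and 3187 in ATG12-/- cells, all above the wild type libraries. Its changes were 0.74 (SE 0.13, limma adjusted p = 0.00230) and 1.12 (SE 0.13, limma adjusted p = 8.35e-05).

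let-7e-5p separated the knockouts. It had 339, 307 and 326 in ATG7-/- cells, all above the wild type libraries, and 203, 192 and 189 in ATG12-/- cells, which overlapped them. The changes were 0.90 (SE 0.13, limma adjusted p = 0.000730) and 0.17 (SE 0.13, limma adjusted p = 0.387). hsa-let-7f-5p had 563, 729.6 and 693 in ATG7-/- cells and 510.2, 464 and 523 in ATG12-/- cells. It rose by 0.89 (SE 0.14, limma adjusted p = 0.00122) and by 0.49 (SE 0.14, limma adjusted p = 0.0258), the latter with an adjusted p of 0.0487 to 0.110 when single libraries were left out. Without any 1 of wild type replicates 1, 2 and 3 or ATG12-/- replicates 1 and 3 that call was lost.

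hsa-let-7c-5p had 133, 138 and 137 in ATG7-/- cells and 107, 112 and 115 in ATG12-/- cells, with changes of 0.38 (SE 0.13, limma adjusted p = 0.0698) and 0.09 (SE 0.13, limma adjusted p = 0.641). hsa-let-7g-5p lay between 18.9 and 31.1 in ATG7-/- cells and between 21.0 and 24.3 in ATG12-/- cells, with changes of 0.30 (SE 0.23) and 0.15 (SE 0.23). Neither passed the test.

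In ATG7-/- cells 4 of 6 tested members were called higher, where 8.44% of 853 features were. In ATG12-/- cells 3 of 6 were, against 7.5% of features. Of all features 8.32% and 18.2% were called lower, and of the members 0. Of the 110 tested microRNAs 30.9% and 15.5% were called higher and 0.909% and 1.82% lower. The knockout and wild type libraries did not overlap for 5 of 6 members in ATG7-/- (35.2% of features) and 3 of 6 in ATG12-/- (48.5% of features). The median change of the members was 0.82 and 0.33, that of all features -0.09 and -0.13, and that of the 110 tested microRNAs 0.50 and 0.20. With TMM factors from microRNAs, a scaling that centres the microRNAs, let-7a in ATG7-/- (0.30) and let-7f in ATG12-/- (0.32) were no longer called and let-7c and let-7g turned to below 0 in both knockouts, as did let-7e in ATG12-/-. With the added microRNA scaling let-7a and let-7f in ATG7-/- (0.21 and 0.36) and let-7f in ATG12-/- (0.23) were not called. let-7b remained called higher in both under every scaling and without any single library.

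In vesicles, knockout against wild type, let-7a and let-7b were higher in both knockouts, let-7e in ATG7-/- and let-7c in ATG12-/-. let-7f and let-7g were not called in either. Again the wild type libraries are shared between the comparisons. Of these calls, that of let-7b in both knockouts and that of let-7a in ATG12-/- remained under every scaling, tool and omission of 1 library that was run.

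hsa-let-7b-5p had 62.0, 72.4 and 70.3 in ATG7-/- vesicles and 93.8, 110.1 and 126 in ATG12-/- vesicles. All 6 lay above the wild type vesicle libraries, whose highest value was 46.3. The changes were 1.30 (SE 0.31, limma adjusted p = 0.00238) and 1.98 (SE 0.31, limma adjusted p = 0.000229). hsa-let-7a-5p had 802, 822 and 932 in ATG7-/- vesicles and 1332, 1094 and 1062 in ATG12-/- vesicles. The ATG7-/- libraries overlapped wild type replicate 1 (821), the ATG12-/- libraries did not, and the changes were 0.45 (SE 0.17, limma adjusted p = 0.0325) and 0.89 (SE 0.17, limma adjusted p = 0.000816).

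The call of let-7a in ATG7-/- vesicles was lost with library totals (0.07, limma adjusted p = 0.736), TMM over all features (0.25), edgeR (0.28, adjusted p = 0.258), DESeq2 (0.34, adjusted p = 0.123) and both added scalings (0.32 and 0.08). It was also lost without wild type replicate 2 or 3 or ATG7-/- replicate 2 or 3 (limma adjusted p up to 0.128). hsa-let-7e-5p had 87.0, 93.4 and 78.2 in ATG7-/- vesicles and 60.7, 45.1 and 26.4 in ATG12-/- vesicles. The first lay above wild type and the second overlapped it. The changes were 0.89 (SE 0.31, limma adjusted p = 0.0218) and -0.14 (SE 0.31, limma adjusted p = 0.727), and the call in ATG7-/- was lost with library totals (0.51), TMM over all features (0.69), edgeR (0.70) and both added scalings (0.76 and 0.52), and without wild type replicate 2 or 3 or ATG7-/- replicate 1 or 2 (limma adjusted p up to 0.0992). hsa-let-7c-5p had 42.2, 45.5 and 51.7 in ATG7-/- vesicles and 86.9, 49.1 and 69.8 in ATG12-/- vesicles. The changes were 0.20 (SE 0.27, limma adjusted p = 0.536) and 0.72 (SE 0.27, limma adjusted p = 0.0432), and the second was lost with library totals (0.36), TMM over all features (0.60) and from microRNAs (0.61), the added scalings (0.72 and 0.34), no filter (0.72), edgeR (0.72, adjusted p = 0.0631) and DESeq2 (0.66, adjusted p = 0.0840), and without wild type replicate 2 or 3 or ATG12-/- replicate 1 or 3.

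hsa-let-7f-5p stood at 157, 161 and 149 in ATG7-/- vesicles and 105, 143 and 132 in ATG12-/- vesicles. Both groups overlapped wild type, and the changes were 0.14 (SE 0.19), which turned to -0.23 with library totals, and -0.17 (SE 0.19), which was called with library totals (-0.52, limma adjusted p = 0.0259) and with the added microRNA scaling (-0.55). hsa-let-7g-5p had 18.5, 11.7 and 7.96 in ATG7-/- vesicles and 9.65, 10.6 and 11.3 in ATG12-/- vesicles, from 6 to 14 reads per library. Its changes were -0.40 (SE 0.37) and -0.58 (SE 0.37), and neither passed the test.

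In ATG7-/- vesicles 3 of 6 members were called higher against 33.5% of 850 features, and in ATG12-/- vesicles 3 of 6 against 22.6%. None was called lower, against 28.9% and 21.1% of features. Of the 113 tested microRNAs 32.7% and 31.0% were called higher and 9.73% and 11.5% lower. Without overlap between the groups were 2 of 6 members in ATG7-/- (68% of features) and 3 of 6 in ATG12-/- (52.7% of features). The members' median change was 0.32 and 0.29, that of all features 0.11 and 0.05, and that of the 113 tested microRNAs 0.34 and 0.40. Beside these values stand those of microRNAs abundant in blood and serum. Of 8 listed, 7 had a value and all 7 had at least 1 read in wild type vesicles. Their summed level ranged from 90.45 to 134 normalised reads in wild type, 181 to 263 in ATG7-/- and 247 to 330 in ATG12-/- vesicles, and from 1.27 to 11.4 in all cell libraries. Most of that sum was miR-486-5p (means 54.2, 127 and 166 in the same vesicle groups) and miR-150-5p (38.2, 67.8 and 93.1). The list did not rise as a whole: miR-223-3p had 9.01, 8.50 and 14.1, and miR-122-5p 4.76, 8.07 and 5.24. In each knockout 2 of the 3 tested were called higher. miR-144-3p was at 0 in every ATG7-/- vesicle library, and the part of serum RNA in the vesicle values of let-7 was not tested. In cells let-7b rose by 1.38 and 2.03 and the list summed to no more than the 11.4 given. The part of serum RNA in the cell values was not tested either.

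To ask whether a knockout changed a member by a different amount in vesicles than in cells, the change in cells was subtracted from the change in vesicles. let-7f was called in both knockouts, with a change in vesicles that was lower than that in cells. The difference was -0.75 (SE 0.24, limma adjusted p = 0.0102) in ATG7-/- and -0.66 (SE 0.24, limma adjusted p = 0.0435) in ATG12-/-. The first was lost with TMM factors from microRNAs (-0.36, limma adjusted p = 0.196) and with the added microRNA scaling (-0.38). The second was lost in 9 of the 12 fits that leave out 1 library, those without wild type vesicle replicate 1 or 3, ATG12-/- vesicle replicate 1 or 3, wild type cell replicate 2 or 3 or any ATG12-/- cell replicate. It was also lost with TMM factors from microRNAs, with the added microRNA scaling, without the filter on low values and with a replicate block. For let-7b the differences were -0.08 (SE 0.37) and -0.06 (SE 0.37), near 0 but with errors that allow sizeable differences either way.

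Of the 6 tested members 1 was called lower and 0 higher in each of these comparisons. Of 905 features 28.7% were lower and 26.3% higher in ATG7-/-, and 12% lower and 14.4% higher in ATG12-/-. With library totals let-7a and let-7g were also called lower in both.

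The knockouts were also set against each other. In vesicles let-7a was higher in ATG12-/- than in ATG7-/- by 0.44 (SE 0.17, limma adjusted p = 0.0429) and let-7e lower by 1.03 on the log2 scale (-1.03, SE 0.31, limma adjusted p = 0.0140). In cells let-7b was higher in ATG12-/- by 0.65 (SE 0.16, limma adjusted p = 0.0126) and let-7e lower (-0.73, SE 0.13, limma adjusted p = 0.00270). let-7e was thus lower in ATG12-/- in both kinds of library, with groups that did not overlap. In vesicles that call was lost without ATG12-/- replicate 3 (-0.71, limma adjusted p = 0.0659) and with edgeR (-0.79, adjusted p = 0.0525). The let-7a call in vesicles was lost without any 1 of ATG7-/- replicates 1 and 2 and ATG12-/- replicates 1, 2 and 3, and the let-7b call in cells without ATG7-/- replicate 2 or ATG12-/- replicate 1. In cells let-7a differed by 0.38 (SE 0.13, limma adjusted p = 0.0547) and was called with edgeR, DESeq2 and each other scaling.

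In vesicles 1 member was called higher and 1 lower, against 26.6% and 23.3% of 850 features, and in cells 1 and 1, against 5.63% and 14.4% of 853 features. The knockouts did not overlap for 4 of 6 members in vesicles (58.7% of features) and 5 of 6 in cells (34.2% of features).

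Ratios within a library need no size factor, so the members were also counted per 100 reads of let-7a-5p. With 3 libraries against 3 an exact permutation test cannot give a p below 0.1, so these ratios are given as values. In wild type cells there were 2.47 ± 0.340 reads of let-7b, 7.26 ± 0.104 of let-7c, 12.1 ± 0.817 of let-7e and 24.6 ± 0.907 of let-7f per 100 reads of let-7a (SD, n = 3). In ATG7-/- cells the values were 3.95 ± 0.814, 5.66 ± 0.108, 13.5 ± 0.970 and 27.5 ± 3.23. In ATG12-/- cells they were 4.73 ± 0.198, 3.58 ± 0.167, 6.23 ± 0.268 and 16.0 ± 0.522. Relative to let-7a, therefore, let-7b was higher and let-7c lower in both knockouts with no overlap with wild type. let-7e and let-7f were lower relative to let-7a in ATG12-/- cells, also with no overlap. By normalised reads let-7a itself rose in knockout cells (0.74 in ATG7-/- and 1.12 in ATG12-/-), and no member was called lower. How often ratios of other microRNAs do not overlap was not computed.

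In vesicles the ratios of wild type were 4.48 ± 1.39 for let-7b, 6.49 ± 0.809 for let-7c, 7.45 ± 1.18 for let-7e and 22.8 ± 3.79 for let-7f. In ATG7-/- vesicles they were 8.03 ± 0.683, 5.45 ± 0.162, 10.2 ± 1.59 and 18.4 ± 2.11. In ATG12-/- vesicles they were 9.67 ± 2.45, 5.86 ± 1.19, 3.72 ± 1.09 and 11.1 ± 2.84. The ratios of let-7e and let-7f were again lower in ATG12-/- with no overlap with wild type. By normalised reads let-7a was higher in ATG12-/- vesicles (0.89), and neither let-7e (-0.14) nor let-7f (-0.17) was called. The let-7b ratio was higher in vesicles than in cells in all 3 genotypes, with no overlap.

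**Figure D3:**
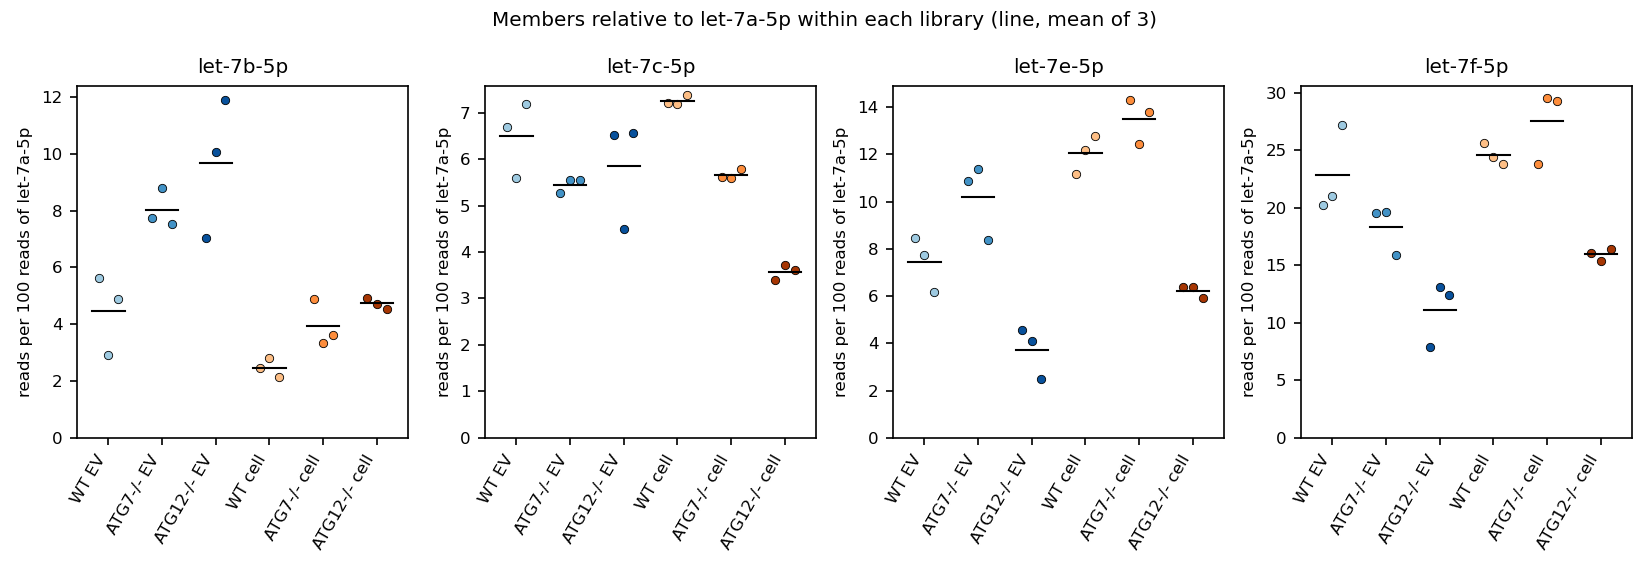
Reads of let-7b, let-7c, let-7e and let-7f per 100 reads of let-7a-5p (y axis, linear from 0) in the 18 libraries; points are libraries and lines means of 3. The mean of let-7b is 2.47 in wild type cells and 4.73 in ATG12-/- cells, and that of let-7f is 24.6 and 16.0.

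let-7d, let-7i and miR-98 were close to the limit of detection. hsa-let-7d-5p had 0.968 ± 0.838 normalised reads in wild type, 7.18 ± 1.97 in ATG7-/- and 7.16 ± 4.61 in ATG12-/- vesicles, that is 2, 17 and 15 reads per group. In cells it had 2.92 ± 0.375, 6.92 ± 2.61 and 6.35 ± 1.81. hsa-let-7i-5p reached no more than 7 reads in any library. hsa-miR-98-5p had 3.62 ± 2.57, 8.34 ± 4.77 and 4.82 ± 1.30 in wild type, ATG7-/- and ATG12-/- cells and 1.89 ± 0.758, 1.17 ± 2.02 and 0 in vesicles.

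The 3 ATG12-/- vesicle libraries held 0 reads of miR-98. A count of 0 allows up to 3 reads over the group, or 1.53 normalised reads, which is 3.15-fold below the mean of ATG12-/- cells. That limit covers the counting error of the vesicle libraries alone. It takes the cell mean, which rests on 24 reads over the group, as fixed.

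let-7d was also the member whose hairpin gave more of its 3p arm. Over the 18 libraries hsa-let-7d-5p had 105 reads and let-7d-3p 246, so the 5p arm took 29.9%, and it was above the 3p arm in 1 of 18 libraries. For every other member the 5p arm took 76.5% to 99.7% of the reads of its listed arms. The hairpins of let-7a were pooled, as were those of let-7f, and let-7a-2-3p had no entry to count. The 3p sequence of let-7d, shown because it is the more abundant arm, has no seed in common with the family and bases 2 to 8 are not marked:
hsa-let-7d-3p: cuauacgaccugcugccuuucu

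hsa-let-7d-3p had 7.23, 0 and 5.84 normalised reads in wild type vesicles, 13.2, 17.5 and 19.9 in ATG7-/- vesicles and 13.8, 29.2 and 13.2 in ATG12-/- vesicles. Both knockouts lay above wild type without overlap, with changes of 2.20 (SE 0.67, limma adjusted p = 0.0110) and 2.27 (SE 0.67, limma adjusted p = 0.0143). Without wild type replicate 2, the library with 0 reads, they were 1.23 and 1.30 and still called. In wild type it was lower in vesicles than in cells (-1.39, SE 0.54, limma adjusted p = 0.0238), a call that was lost with edgeR, with DESeq2, without the filter, without wild type vesicle replicate 2 (-0.42) and without wild type cell replicate 2. The rise in ATG12-/- vesicles was lost without ATG12-/- replicate 2 (1.92, limma adjusted p = 0.0630). These are 0 to 22 reads per vesicle library.

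The microRNAs that share a transcript with let-7e allow a check of 1 hairpin's neighbours. miR-99b and miR-125a lie within 389 bp of the let-7e hairpin. let-7e was lower in vesicles than in cells in all 3 genotypes, while miR-99b-5p was higher, by 0.60 (SE 0.21), 1.30 (SE 0.21) and 1.45 (SE 0.21) in wild type, ATG7-/- and ATG12-/-, and miR-125a-5p was higher by 0.66 (SE 0.21), 0.59 (SE 0.21) and 0.95 (SE 0.21). With library totals as the scaling these neighbours reversed, to -0.88, -0.65 and -0.61 for miR-99b and -0.84, -1.38 and -1.12 for miR-125a, and let-7e stayed lower. With TMM factors from microRNAs miR-99b and miR-125a in wild type were 0.26 and 0.32 and not called. miR-125a in wild type was also not called without vesicle replicate 1 (0.43). In ATG7-/- miR-125a was not called with TMM over all features (0.38), its added version (0.39), edgeR (0.36), or without vesicle replicate 3 (0.50) or cell replicate 1 (0.38). The ratio of let-7e to its neighbours is set within each library and does not depend on the scaling.

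hsa-miR-99b-5p had 49.1, 52.5 and 48.1 normalised reads in wild type vesicles and 31.2, 33.6 and 32.9 in wild type cells. Its ATG7-/- vesicle libraries had 121, 121 and 101 and its ATG12-/- vesicle libraries 77.2, 80.9 and 83.0, all above wild type. The changes were 1.18 (SE 0.16, limma adjusted p = 2.86e-05) and 0.68 (SE 0.16, limma adjusted p = 0.00416). hsa-miR-125a-5p had 136, 83.0 and 83.2 in wild type vesicles and 136, 127 and 159 in ATG7-/- vesicles, a change of 0.51 (SE 0.21, limma adjusted p = 0.0475) that was lost with every alternative scaling and tool, without the filter, with a replicate block (limma adjusted p = 0.0807) and without any 1 of wild type replicates 2 and 3 and ATG7-/- replicates 1, 2 and 3. The rise of miR-99b in ATG12-/- vesicles was lost with library totals (0.32) and the added microRNA scaling (0.30). In cells neither neighbour was called in either knockout against wild type, whereas let-7e was called in ATG7-/- cells. Means in wild type, ATG7-/- and ATG12-/- cells were 32.6, 46.0 and 30.1 for miR-99b and 61.8, 94.9 and 58.6 for miR-125a. Those of let-7e were 174, 324 and 195. From ATG7-/- to ATG12-/- cells 1 of these 2 neighbours was called lower (14.4% of 853 features), as let-7e was. In vesicles 1 of the 3 tested cluster neighbours was called lower in that comparison (23.3% of 850 features). Whether the neighbours differed from let-7e was not tested.

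Of the 5 listed cluster neighbours 3 were tested between vesicles and cells. All 3 were called higher in each genotype, where 38.9%, 40% and 39.2% of features were. The third was miR-125b-5p (1.37, 2.04 and 2.91), whose hairpin looked up here, MIR125B1, lies 46677 bp from MIRLET7A2. miR-125b had 2 to 30 reads per library. Its calls were lost with library totals in all 3 genotypes, and in wild type also with TMM factors from microRNAs and without vesicle replicate 1 or cell replicate 2. miR-99a-5p and miR-100-5p, neighbours of let-7c and let-7a-2, reached no more than 3 reads in a library.

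**Figure D4:**
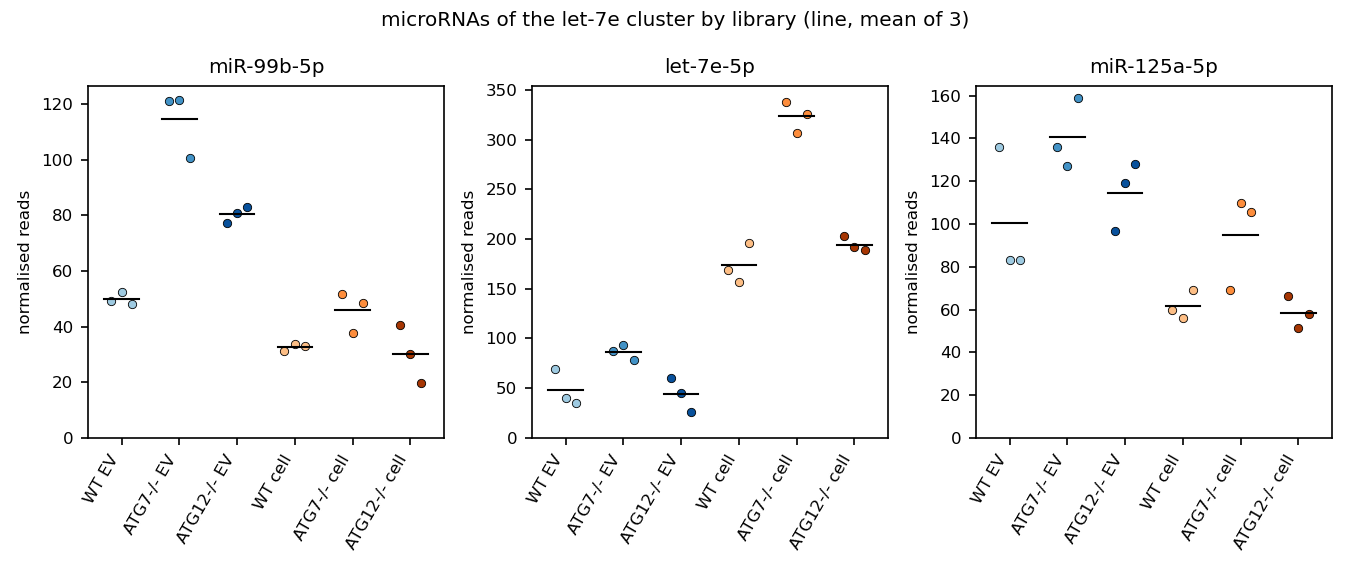
Normalised reads (y axis, linear from 0) of miR-99b-5p, let-7e-5p and miR-125a-5p, which are encoded next to each other on chromosome 19, in the 18 libraries; points are libraries and lines means of 3. let-7e is higher in cells than in vesicles, while the 3 vesicle groups of miR-99b lie above the cell groups of the same genotype.

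The microRNAs whose levels most resembled the family total across the 18 libraries were found by Pearson's r with the log2 sum of the 9 members, among 115 microRNAs. They were miR-196a-5p (r = 0.944), miR-106b-3p (0.932), miR-1307-3p (0.930), miR-615-3p (0.916) and miR-3653-5p (0.883). These libraries share the split between vesicles and cells, and within the 9 cell libraries the values were 0.830, 0.789, 0.685, 0.718 and -0.504. Within the 9 vesicle libraries they were 0.667, 0.454, 0.687, 0.760 and 0.640.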

How the data were processed

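Per the labels' protocols, a SMARTer kit with 12 PCR cycles made the small RNA libraries, sequenced from 1 end over 50 bp. The submitters' processing notes name cutadapt 2.3, Bowtie2 2.3, bedtools, DESeq2 and the builds GRCh38 and hg38. The deposited signal values are the authors' reads divided by 1 size factor per library: multiplied back, 100% came out whole within 1e-06, and the factors matched median-of-ratios factors to 3.55e-15. edgeR on these recovered reads called 508 and 375 features in ATG7-/- and ATG12-/- against wild type vesicles and 140 and 182 in cells.

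Values were tested on log2 (normalised reads + 1) with limma 3.58.1 (R 4.3.3, intensity trend), with two-sided p-values that were adjusted by Benjamini-Hochberg over every tested feature. Vesicle and cell comparisons used 9 libraries each, and comparisons between them all 18. Features needed 10 normalised reads in 3 fitted libraries. edgeR 4.0.16 and DESeq2 1.42.0 were alternatives. The fit was checked on simulated data, with larger changes than most member calls here and the same spread setting for every feature. That check does not cover smaller changes or errors of scaling. All 9 members are named whatever their values. The members and lists were chosen with earlier results of these data known. The labels call the samples biological replicates, and p-values measure only the spread between these samples.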

Additional observations from a re-analysis of the deposited data

Results flagged for a closer look

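Among the members, their 3p arms and the cluster neighbours, 4 cases were called by a test of the change in vesicles minus that in cells (limma, adjusted over 905 features). Of all features 28.7% were called lower and 26.3% higher in ATG7-/-, and 12% lower and 14.4% higher in ATG12-/-. Of the listed microRNAs abundant in blood and serum, 1 of 3 tested was also called, higher in ATG12-/-. For let-7f-5p the change in vesicles was lower than that in cells, by -0.75 (SE 0.24, limma adjusted p = 0.0102) in ATG7-/- and -0.66 (SE 0.24, limma adjusted p = 0.0435) in ATG12-/-. As given above, both were lost with TMM factors from microRNAs, and the second in most fits that leave out 1 library. For let-7d-3p in ATG12-/- the difference was 2.17 (SE 0.77, limma adjusted p = 0.0414), on 0 to 22 reads per vesicle library, and it was lost with library totals, TMM over all features and its added version, a pseudocount of 0.5, no filter, edgeR, a replicate block (limma adjusted p = 0.0511) and in 8 of 12 fits that leave out 1 library, with 1.20 without wild type vesicle replicate 2. For miR-99b-5p in ATG12-/- it was 0.85 (SE 0.30, limma adjusted p = 0.0437), and it was not called with library totals, TMM over all features, the added scalings, no filter, edgeR, DESeq2 or in 11 of 12 fits that leave out 1 library.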

How the results depend on the processing

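Alternatives were library totals, trimmed mean of M values (TMM) factors over all features, TMM factors from microRNAs, a pseudocount of 0.5, no filter on low values, edgeR, DESeq2, a replicate block and leaving out each library. A further pair of scalings, TMM factors from only the fitted libraries and tested features (all, or microRNAs), was added after the first TMM results had been seen. Of 1128 member results under an alternative 982 kept their direction and side of the threshold, 68 lost a call, 34 gained one and 44 reversed. No called member reversed. The cause of these changes was not tested.

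The number of members called in ATG7-/- against wild type vesicles fell from 3 to 1 with library totals, TMM over all features, edgeR and both added scalings (1 to 3 with a library left out). In ATG12-/- against ATG7-/- vesicles it was 1 with TMM from microRNAs (0 to 2 with a library left out). In ATG7-/- cells it fell from 4 to 2 with the added microRNA scaling, and between knockout cells it was 1 to 3 with a library left out. For the difference of changes it was 3 with library totals and 0 with TMM from microRNAs and the added microRNA scaling, in both knockouts. In ATG12-/- it was also 0 without the filter and with the replicate block, and 0 to 2 with a library left out.

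All features called in ATG7-/- against wild type cells went from 143 to 510 and 560 with the microRNA scalings and to 74 to 88 without a wild type library. In ATG12-/- cells they went from 219 to 96 to 134 without wild type replicate 1 or 2 or an ATG12-/- library, and between knockout cells from 171 to 79 to 101 without ATG7-/- replicate 2 or ATG12-/- replicate 1 or 3.

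Scaling moved the medians of all features: library totals by -1.44, -1.91 and -2.07 (vesicles against cells) and by -0.36 and -0.34 (vesicles, knockouts against wild type), and TMM from microRNAs by -0.44 and -0.17 (cells). Calls that were higher went from 47.6%, 48.3% and 48.8% to 19.4%, 17.7% and 14.3% with library totals (vesicles against cells). In vesicles of ATG7-/- they went from 53.7% to 31.9% with totals and 29.9% with the added microRNA scaling, and of ATG12-/- from 51.8% to 22.0% and 15.5%, with 40.9% and 39.7% under TMM over all features and from microRNAs. In ATG7-/- cells they went from 50.3% to 4.71% with TMM from microRNAs, 3.21% with the added microRNA scaling and 61.4% to 66.9% with totals, edgeR and DESeq2. In ATG12-/- cells 29.2% became 7.46% and 5.70% with the microRNA scalings and 41.5% to 62.7% with the other scalings, edgeR and DESeq2. Between knockout cells 28.1% became 45.1% to 80.9% with the other scalings and edgeR. For the difference of changes 47.8% became 17.9% (totals), 33.9% (edgeR), 34.5% (added), 63.7% and 62.7% (microRNAs) in ATG7-/-, and 54.4% became 6.94% (totals), 32.2% (TMM), 20.6% (edgeR) and 21.2% (added) in ATG12-/-.

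With library totals let-7c and let-7f in ATG7-/- vesicles against wild type became -0.17 and -0.23, miR-99b in vesicles against cells -0.88, -0.65 and -0.61, and miR-125a -0.84, -1.38 and -1.12. let-7f there was also -0.061 with TMM over all features and -0.018 with edgeR. The added microRNA scaling gave -0.16 and -0.23 for let-7c and let-7f, and 0.14 for let-7b in ATG7-/- vesicles against cells. With TMM from microRNAs, and with the added version, let-7c and let-7g became -0.059 and -0.12, and -0.15 and -0.21, in ATG7-/- cells; let-7c, let-7e and let-7g became -0.074, -0.0039 and -0.014, and -0.16, -0.091 and -0.10, in ATG12-/- cells. let-7g between knockout cells became 0.11 in both. For the ATG7-/- difference of changes let-7a, let-7b, let-7c and let-7e became 0.10, 0.31, 0.21 and 0.38, and 0.077, 0.29, 0.19 and 0.36. With a library left out the ranges that crossed 0 were -0.75 to 0.021 (let-7b, wild type vesicles against cells), -0.032 to 0.42 and -0.044 to 0.26 (let-7c, let-7f, ATG7-/- vesicles), -0.41 to 0.18 (let-7e, ATG12-/- vesicles), -0.45 to 0.11 (let-7g, knockout vesicles), -0.47 to 0.30, -0.41 to 0.039 and -0.20 to 0.28 (let-7b, let-7c, let-7e, ATG7-/- difference), and -0.45 to 0.32 and -0.57 to 0.015 (let-7b, let-7e, ATG12-/- difference).

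The labels number the replicates. After group means were subtracted, same-numbered libraries correlated at -0.22 to 0.19. In 0 of 9 pairs of groups were all above 0.1, and in 1 every library correlated best with its own number. With 3 libraries per group, these correlations cannot settle whether same-numbered samples were prepared together. With the replicate block let-7f in the ATG12-/- difference was -0.66 (limma adjusted p = 0.0537). The block also ended the calls of let-7d-3p in that difference (2.17, limma adjusted p = 0.0511) and of miR-125a in ATG7-/- vesicles (0.51, limma adjusted p = 0.0807), and no other reported call changed. Depth limits let-7g, let-7d, let-7i and miR-98, with at most 15 reads in a vesicle library.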
